A study of Rattus norvegicus with 33 samples.

Results

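Elf5, Kit, Plet1, Aldh1a3 and Prom1 are 5 genes used as markers of progenitor cells of the luminal and alveolar lineage of the mammary gland. Their RNA was followed in whole glands of female rats of the outbred Sprague-Dawley strain, from before puberty to adulthood. The 5 genes were taken by name from 18166 gene symbols on the array. Each had 1 probe set, and all 5 were among the 10986 genes that passed the filter on low values.

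The milk-producing epithelium of the gland has an outer basal layer and an inner luminal layer. In mice, the luminal layer holds hormone-sensing cells, which carry the estrogen and progesterone receptors, and hormone receptor-negative progenitors, which give rise to alveolar cells that secrete milk. Elf5 encodes a transcription factor of the ETS family that mouse alveoli need in order to form. Kit encodes the receptor tyrosine kinase for stem cell factor and is enriched in mouse luminal progenitors. It is also made by mast cells and melanocytes. Plet1 encodes a membrane-anchored surface protein, Prom1 encodes prominin-1 (CD133), a protein of membrane protrusions, and Aldh1a3 encodes an enzyme that makes retinoic acid. In the mouse gland, CD133 is mainly known from hormone-sensing luminal cells.

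The series holds 33 arrays in 6 stages: pre-pubertal at postnatal day 21 (n = 10), peri-pubertal at day 42 (n = 5), pubertal at day 63 (n = 5), lactation at day 146 (n = 3), and parous and age-matched nulliparous at day 181 (n = 5 each). All rats were controls that received olive oil by gavage, the vehicle of a chemical study, and no other agent or allele is named. Each stage was collected on 1 day without regard to the estrous cycle, and the day 21 pups were still with their dams. Lactating glands came from lactation day 28, the end of lactation. The series record gives 10 pre-pubertal animals and the sample notes give 5 per stage. An array is counted here as 1 animal, and where arrays share an animal the p-values are too small.

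The labels name 3 batches. Batch 1 held arrays of every stage but lactation, batch 2 held the 3 lactation arrays and 4, 2 and 2 arrays of days 21, 42 and 63, and batch 3 held 2 parous and 2 nulliparous arrays. The batch 3 arrays were also the only ones extracted with the Zymo kit, which the labels tie to fattier adult glands, so batch and kit cannot be told apart. Lactation and day 63 shared batch 2, but parous and lactating glands shared no batch and were linked only through the 3 young stages. One limma model with terms for stage and batch over all 33 arrays gave the differences below, except where another fit or scale is named. A gene was called at a Benjamini-Hochberg adjusted p under 0.05 over 10986 genes. Values are log2 array values, and "rose" and "fell" are used only of called differences. In whole glands, fewer cells of a type and less RNA per cell cannot be told apart.

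Luminal genes were followed at every stage, though their values do not show luminal epithelium in each day 21 array. The mean of 16 luminal genes (keratins, claudins, Epcam and others) averaged 8.26 ± 0.80 at day 21, 9.75 ± 0.27 at day 42, 9.90 ± 0.21 at day 63, 10.85 ± 0.33 in lactation, 9.65 ± 0.25 in parous and 9.72 ± 0.23 in nulliparous glands (SD, n as above). It was lowest, at 6.75, in pre-pubertal array 2, under 7.645, the floor of the filter on low values. That array also stood lowest of the day 21 arrays in Elf5, Kit and Plet1. Among the day 21 arrays the list mean was highest, at 9.68, in array 8. Of the 16 genes, 15 rose at day 42 against day 21, 10 rose in lactation against day 63 and 10 fell in parous against lactating glands. Lists of other cell types also moved, and their part in the members' changes was not tested. At day 42 against day 21, 10 of 12 white adipocyte genes, 7 of 7 B cell genes and 7 of 8 T cell genes fell, and 4 of 8 basal genes rose. In lactation against day 63, 10 of 12 white adipocyte genes fell, and 8 of 12 rose in parous against lactating glands.

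Of the 5 members, 4 rose at day 42 against day 21, where 17.1% of all genes rose. Plet1 was 7.09-fold higher at day 42 than at day 21, Elf5 4.18-fold, Kit 2.21-fold and Prom1 1.68-fold, whereas Aldh1a3 was not called. In lactation Kit and Prom1 fell against day 63, as did 16.9% of all genes. Elf5 and Plet1 had their highest stage means in lactation, not called against day 63 or the adult stages, and Prom1 rose again in parous against lactating glands. Parous against nulliparous glands of the same age gave 0 calls among the 5, and 0.0182% over all genes. A test over all 6 stages was passed by Plet1 (limma F test, adjusted p = 2.66e-09), Elf5 (5.70e-08), Kit (9.30e-07) and Prom1 (3.00e-05), and missed by Aldh1a3 (0.0624). It was passed by 65.9% of all genes tested.

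**Figure D1:**
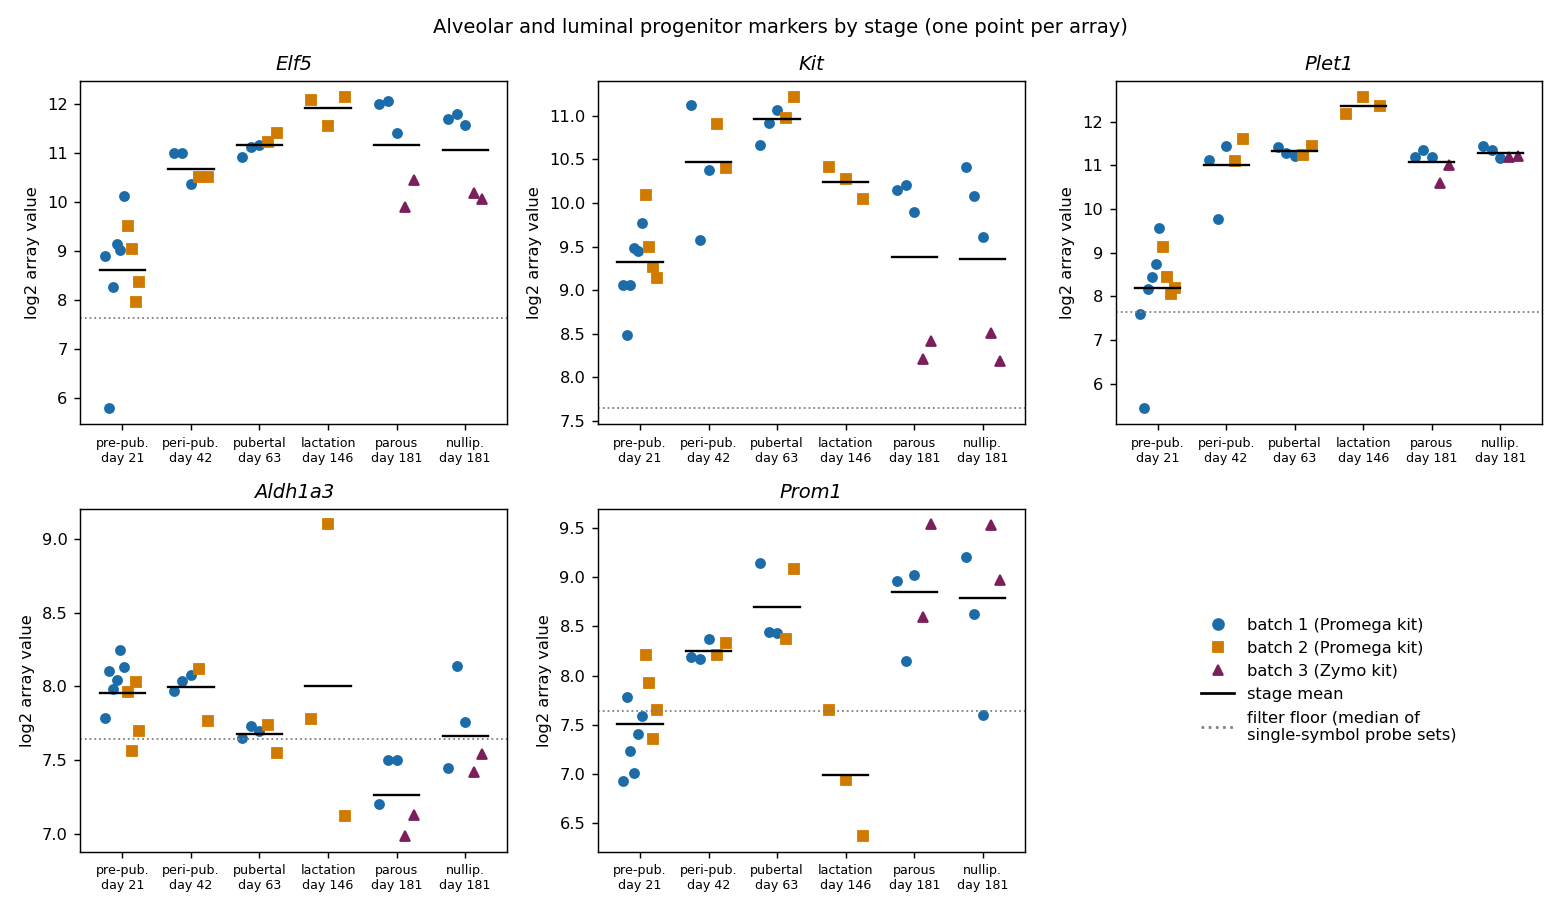
Log2 array values of the 5 members by stage, 1 point per array, with batch marked by shape and the stage mean by a bar. Elf5 and Plet1 are highest in the 3 lactation arrays by mean, Kit at day 63, and the 4 batch 3 arrays hold the lowest adult values of Elf5 and Kit.

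Elf5, the transcription factor, ranged from 5.80 to 10.12 at day 21, with a median of 8.96. It was 11.01, 10.997, 10.37, 10.50 and 10.51 at day 42, and 10.93, 11.12, 11.15, 11.24 and 11.41 at day 63. It stood at 12.07, 11.55 and 12.15 in lactation. Every day 42 and day 63 array lay above every day 21 array, as it did for 3.22% of genes at day 42 and 5.93% at day 63. The lactation arrays lay above those of day 63, which 18.4% of genes showed. In adult glands the values split by batch. Parous glands had 12.004, 12.07 and 11.40 in batch 1 and 9.91 and 10.44 in batch 3, and nulliparous glands had 11.70, 11.80 and 11.58 in batch 1 and 10.18 and 10.07 in batch 3. Elf5 was lower in batch 3 than in batch 1 by a log2 difference of -1.61 ± 0.44 (SE, limma adjusted p = 0.00172). The adult stage means, 11.16 ± 0.96 in parous and 11.07 ± 0.86 in nulliparous glands (SD, n = 5 each), average over these 2 levels.

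Elf5 rose by 2.06 ± 0.38 at day 42 against day 21 (SE, limma adjusted p = 0.000130). The call held in both batches taken alone, at 2.25 in batch 1 and 1.79 in batch 2 (limma adjusted p = 0.0172 and 0.0129). Elf5 was then 0.49 ± 0.44 higher at day 63 than at day 42, which was not called (adjusted p = 0.653). Lactation against day 63 gave 0.71 ± 0.54 (adjusted p = 0.307), with a 95% interval of -0.39 to 1.81. Without pre-pubertal array 2, the same difference was 0.87 ± 0.32 and was called (adjusted p = 0.0303). Nulliparous glands against day 63 gave 0.57 ± 0.49, which was not called (adjusted p = 0.604). Parous against lactating glands gave -0.04 ± 0.62 and parous against nulliparous glands gave 0.10 ± 0.44, neither of them called.

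Kit, the receptor, had its highest stage mean at day 63, unlike the other members. It ranged from 8.49 to 10.09 at day 21, with a median of 9.35. The day 42 arrays gave 11.12, 9.58, 10.37, 10.90 and 10.40, the day 63 arrays 10.67, 10.91, 11.06, 10.97 and 11.22, and the lactation arrays 10.41, 10.27 and 10.05. Day 42 overlapped with day 21 in 1 array, 9.58, whereas day 63 lay wholly above day 21 and lactation. All lactation arrays were below all day 63 arrays for 17.4% of genes, and all day 63 arrays were above all day 21 arrays for 5.93%. Parous glands had 10.15, 10.21 and 9.89 in batch 1 and 8.21 and 8.42 in batch 3. Nulliparous glands had 10.41, 10.08 and 9.61 in batch 1 and 8.51 and 8.19 in batch 3. The batch 3 values did not overlap with those of batch 1 in either stage, at only 2 and 3 arrays. The same was seen in Elf5 in both stages, and in Plet1 and Aldh1a3 in parous glands. Over all genes, 44.4% were called lower in batch 3, and the share without overlap was not computed.

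Kit rose by 1.14 ± 0.19 at day 42 against day 21 (SE, limma adjusted p = 5.34e-05), with 1.14 in batch 1 and 1.15 in batch 2 taken alone. It fell by 0.88 in lactation against day 63 (log2 difference -0.88 ± 0.28, limma adjusted p = 0.0116), a 1.85-fold lower level. Inside batch 2 the difference was -0.85 (adjusted p = 0.0358). The call was lost without lactation array 3 (-0.79, adjusted p = 0.0531) and without a batch term (-0.72, adjusted p = 0.302). Parous and lactating glands differed by 0.09 ± 0.32 (adjusted p = 0.850).

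All 5 nulliparous arrays lay below all 5 day 63 arrays in Kit, which 3.74% of genes also showed, yet the difference with batch in the model, -0.81 ± 0.25, just missed the call (limma adjusted p = 0.0613). Inside batch 1 it was -0.85 (adjusted p = 0.196). It was called without pre-pubertal array 2 or 4, without peri-pubertal array 1 or 2, or without nulliparous array 1 (adjusted p = 0.0258 to 0.0479 among these). Parous against day 63 gave -0.79 ± 0.25 (adjusted p = 0.0514). Kit had the largest batch 3 difference of the 5 members, -1.73 ± 0.23 (adjusted p = 7.13e-08), and 44.4% of all genes were called lower in that batch.

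Markers of mast cells and melanocytes, other cells known to make Kit, were set beside it, and their part in its changes was not tested. Of 7 mast cell genes tested, 1 rose at day 42 against day 21 (Hdc, the histamine-forming enzyme), where 17.1% of all genes rose. In lactation against day 63, 2 fell (Hpgds and Cpa3), where 16.9% of all genes fell. Counts this small cannot be told from those shares. The mean of the 7 tested genes was 8.54 to 8.73 in the batch 3 arrays, where Kit was lowest among adult glands, and 7.16 to 7.88 in the adult arrays of batch 1. Within stage and batch, Kit and the mean of all 8 measured mast cell genes, of which Mcpt10 did not pass the filter, gave r = 0.06 (Spearman rho 0.03, permutation p = 0.788 and 0.890, adjusted p = 0.915 and 0.933, n = 33). Over the 7 tested genes, a choice made after seeing the data, r was 0.082 (rho 0.069, permutation p = 0.735 and 0.751). Of 6 melanocyte genes, 5 (Dct, Pmel, Tyr, Tyrp1 and Mlana) did not pass the filter. The sixth, the transcription factor Mitf, rose at day 42 against day 21 (0.75, limma adjusted p = 0.000631) and fell in lactation against day 63 (-0.56, adjusted p = 0.0489), the same directions as Kit. These are changes of 1 gene of the list, and whether they came from melanocytes was not tested.

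Kitlg, which encodes the Kit ligand stem cell factor, was called in the same direction as Kit at day 42 and in lactation, and also in parous against lactating glands, where Kit was not called. It rose by 0.61 ± 0.19 at day 42 against day 21 (limma adjusted p = 0.0131), fell by 1.11 in lactation against day 63 (-1.11 ± 0.27, adjusted p = 0.00151) and rose by 1.18 ± 0.31 in parous against lactating glands (adjusted p = 0.00390). Its stage means were 10.43, 11.04 and 11.04 at days 21, 42 and 63, 10.10 in lactation, 10.26 in parous and 10.25 in nulliparous glands. The adult means average over batches. Parous glands had 10.86 to 11.26 in batch 1 and 9.01 to 9.15 in batch 3, and nulliparous glands 10.60 to 11.28 in batch 1 and 8.92 to 9.50 in batch 3. The Kitlg calls depended on the batch term, without which the 3 differences were 0.61, -0.94 and 0.16 (adjusted p = 0.341, 0.181 and 0.824). In batch 1 alone, the first was 0.72 and was called (limma adjusted p = 0.0151). In batch 2 alone, the first was 0.44 and the second -1.09, neither called (adjusted p = 0.558 and 0.0673). Without batch 3 all 3 were called, the last at 1.23 (adjusted p = 0.00572).

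Plet1, the surface protein, showed the widest range of the 5 members. Day 21 values ran from 5.43 to 9.58 with a median of 8.32. Day 42 arrays gave 11.12, 9.78, 11.44, 11.11 and 11.60, and day 63 arrays gave 11.42, 11.28, 11.21, 11.24 and 11.44. Lactation arrays gave 12.17, 12.57 and 12.36, above every other array of the series. All lactation arrays lay above all day 63 arrays for 18.4% of genes, and the share above all other arrays was not computed. Parous glands had 11.19, 11.35, 11.19, 10.60 and 11.01 and nulliparous glands 11.44, 11.35, 11.17, 11.19 and 11.22, with the last 2 of each from batch 3. Unlike Elf5 and Kit, Plet1 showed no called batch 3 difference (-0.28 ± 0.44, limma adjusted p = 0.568).

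Plet1 rose by 2.83 ± 0.37 at day 42 against day 21 (SE, limma adjusted p = 1.88e-06), with 2.78 in batch 1 and 2.89 in batch 2 alone. Lactation against day 63 gave 0.82 ± 0.53, which was not called (adjusted p = 0.222). The same contrast was called inside batch 2, at 1.03 (adjusted p = 0.0226), and without pre-pubertal array 2, at 0.97 (adjusted p = 0.0239). Parous glands lay below lactating glands in every array, as in 14.6% of genes, by -0.80 ± 0.61 in the model (adjusted p = 0.320), and by -1.05 without pre-pubertal array 2 (adjusted p = 0.0395). Day 63 against day 42 gave 0.31 ± 0.43 (adjusted p = 0.787).

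Prom1, the protrusion protein, had its lowest level in lactation. It ranged from 6.93 to 8.21 at day 21, with a median of 7.50, and gave 8.19, 8.17, 8.37, 8.21 and 8.33 at day 42. It gave 9.14, 8.44, 8.44, 8.37 and 9.09 at day 63 and 7.65, 6.94 and 6.37 in lactation. All lactation arrays lay below all day 63 arrays, as in 17.4% of genes. Of the 3, 2 were below the filter floor of 7.645, the median of all named probe sets. Parous glands had 8.96, 8.15, 9.02, 8.59 and 9.54, all above the lactation arrays, as in 13.3% of genes. Nulliparous glands had 9.21, 8.62, 7.60, 9.53 and 8.97, of which 1 overlapped with lactation.

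Prom1 fell by 1.86 in lactation against day 63 (log2 difference -1.86 ± 0.33 (SE), limma adjusted p = 6.55e-05), a 3.63-fold lower value, and inside batch 2 the difference was -1.74 (adjusted p = 0.00653). Since 2 of the 3 lactation arrays lay under the floor and no detection limit is given, this fold and the next are not exact. Prom1 was 3.70-fold higher in parous than in lactating glands (1.89 ± 0.39, adjusted p = 0.000428), where 12.1% of genes rose. Against nulliparous glands, lactation gave -1.82 ± 0.39 (adjusted p = 0.000539), where 13.5% of genes fell. The rise at day 42 against day 21 was smaller, at 0.74 ± 0.23 (adjusted p = 0.0156), and was 0.92 in batch 1 (adjusted p = 0.0377) but 0.48 in batch 2, where it was not called (adjusted p = 0.469). Without a batch term the difference was again 0.74 and missed the call (adjusted p = 0.0513).

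The list of hormone-sensing luminal genes was set beside Prom1. Its mean was 7.86 ± 0.15 in lactation, against 9.18 ± 0.16 at day 63 (SD, n = 3 and 5). Of 10 tested, 5 fell in lactation against day 63, among them the transcription regulators Tbx3 (-1.49), Foxa1 (-1.75) and Cited1 (-2.52), and 4 rose in parous against lactating glands, among them the growth factor Areg (2.44). Against day 21, 2 of the 10 rose in lactation and 3 fell. The 5 genes most like Prom1 over the 33 arrays, after removal of batch effects, were Aadat (r = 0.906), Traf3ip2 (0.894), Rspo3 (0.863), Zbtb20 (0.861) and Bmp3 (0.849). Prom2, the paralog of Prom1, rose by 0.77 ± 0.27 in lactation against day 63 (limma adjusted p = 0.0242), at stage means of 7.19 in lactation and 6.76 at day 63 that both lie under the floor.

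Aldh1a3, the retinoic acid enzyme, stayed near the filter floor and had the smallest range of stage means. It ran from 7.56 to 8.25 at day 21 (median 8.003). It gave 7.97, 8.04, 8.08, 8.12 and 7.76 at day 42 and 7.65, 7.73, 7.70, 7.73 and 7.55 at day 63. Lactation gave 7.78, 9.10 and 7.12, the widest spread of any stage. Parous glands had 7.20, 7.50, 7.50, 6.98 and 7.13, all under the floor, and nulliparous glands 7.44, 8.13, 7.76, 7.42 and 7.54. Only 22 of the 33 arrays were above the floor, against 33 for Kit, 32 for Elf5, 31 for Plet1 and 24 for Prom1.

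Aldh1a3 was called in 2 of the 15 stage pairs. It fell by 0.62 in parous glands against day 21 (-0.62 ± 0.20, limma adjusted p = 0.0196), where 14.7% of genes fell, and by 0.76 in parous against lactating glands (-0.76 ± 0.29, adjusted p = 0.0398). The second call rested on lactation array 2, the array at 9.10, without which the difference was -0.21 (adjusted p = 0.437), and without lactation array 3 it was -1.20. The call was also lost without pre-pubertal array 5, 7 or 10, peri-pubertal array 5, nulliparous array 5 or parous array 1, at differences of -0.75 to -0.69 (adjusted p = 0.05003 to 0.0883). It was lost too without the filter (-0.76, 0.0529), without batch 3 (-0.75, 0.0665), with array weights (-0.55, 0.0930) and when the luminal mean entered the model (-0.62, 0.185). At day 42 against day 21 it differed by 0.04 ± 0.17, with a 95% interval of -0.32 to 0.40. Rdh10, which makes retinaldehyde, the substrate of the enzyme, rose by 0.71 ± 0.18 in lactation against day 63 (adjusted p = 0.00224). Crabp2, which carries retinoic acid to the nucleus, rose by 0.87 ± 0.20 at day 42 against day 21 (adjusted p = 0.00116).

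The 6 main comparisons can be set against all genes. At day 42 against day 21, 4 of 5 members rose, where 17.1% of all genes rose and 32.3% were called in either direction. At day 63 against day 42, 0 members were called by limma, where 1.22% of genes were called, and 1 had an unadjusted p under 0.05 (Kit, p = 0.0357). Nulliparous against day 63 glands gave 0 of 5 by limma, where 4.27% of genes were called, and 1 had an unadjusted p under 0.05 (Kit, p = 0.00301). In lactation against day 63, 2 members fell and 0 rose, where 16.9% of genes fell and 40.7% were called. In parous against lactating glands 1 rose and 1 fell, where 12.1% of genes rose, 20.7% fell and 32.9% were called. Parous against nulliparous glands gave 0 of 5 by limma, where 2 genes, or 0.0182%, were called, and 0 had an unadjusted p under 0.05, the lowest being that of Aldh1a3 (p = 0.0573). The median log2 difference of the 5 members was 1.14 at day 42 against day 21 and 0.42 in lactation against day 63, and that of all genes was near 0 in both. The lactation median is the Aldh1a3 difference, which was not called and moved between -0.13 and 0.86 when 1 array was left out.

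**Figure D2:**
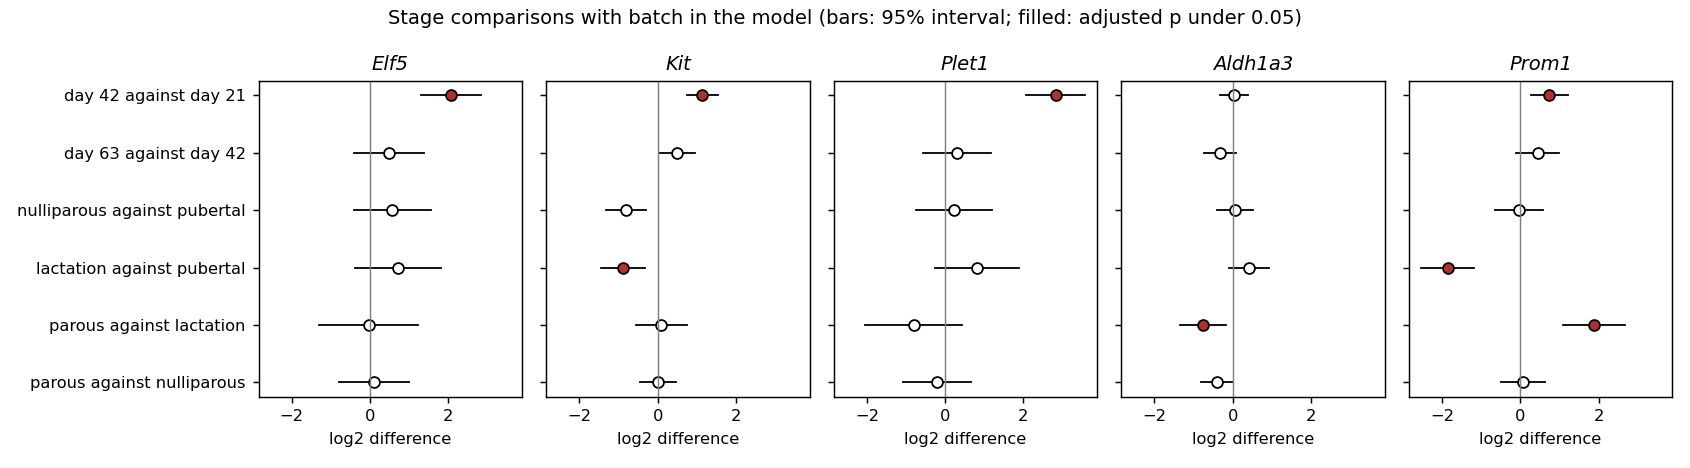
Log2 differences of the 5 members in the 6 comparisons, with batch in the model, 95% intervals as bars and called differences filled. Plet1 at 2.83 and Elf5 at 2.06 are the largest rises at day 42 against day 21, and Prom1 has called differences of opposite sign, -1.86 in lactation against day 63 and 1.89 in parous against lactating glands.

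The order of stages differed between the members. By stage mean, in which the batch 3 arrays are included, Elf5 and Plet1 ran lowest at day 21 and highest in lactation, and Kit ran highest at day 63. With batch in the model, the Elf5 difference was -0.04 for parous against lactating glands and 0.13 for lactating against nulliparous glands, neither of them called. Kit had nearly equal stage means at day 21 and in the adult stages, but with batch in the model it rose by 0.84 ± 0.22 in parous glands against day 21 (limma adjusted p = 0.00489) and by 0.83 ± 0.22 in nulliparous glands against day 21 (adjusted p = 0.00574), where 13.1% and 14.8% of all genes rose. For Elf5, Kit and Plet1, day 63 exceeded day 21 by 2.56, 1.64 and 3.14, all called (limma adjusted p = 4.31e-06, 1.71e-07 and 1.57e-07), where 19.2% of all genes rose. Day 63 against day 42 was called in none of the 5, and the 95% intervals reached up to 1.38 for Elf5 and 1.18 for Plet1. Prom1 ran lowest in lactation. Lactation against day 21 was not called (-0.67 ± 0.31, adjusted p = 0.0621), and no pair among days 42 and 63 and the adult stages was called.

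Since the luminal list rose at day 42 as well, each member was also expressed relative to that list's mean on the same array. On that scale Plet1 rose by 1.33 ± 0.25 at day 42 against day 21 (limma adjusted p = 5.05e-06) and Elf5 by 0.57 ± 0.25 (adjusted p = 0.0276), where 0.401% of all genes rose. Kit was not called (-0.35 ± 0.24, adjusted p = 0.161). Prom1 fell by 0.75 (-0.75 ± 0.33, adjusted p = 0.0299) and Aldh1a3 by 1.46 (-1.46 ± 0.30, adjusted p = 1.96e-05), as did 96.9% of all genes. The list mean was itself higher at day 42, 9.75 against 8.26, so most genes fall on this scale by construction. It is taken off in full, whether or not a gene varies with it. The shares over all genes thus do not place a member among luminal genes, for which no share was computed. Relative to 4 luminal keratins alone, Prom1 was not called (-0.52, adjusted p = 0.122). With the list mean as a covariate in place of a subtraction, none of the 5 was called, and Plet1 came closest at 0.92 (adjusted p = 0.0641). Elf5 was then 0.11 (adjusted p = 0.930) and Kit 0.36 (adjusted p = 0.519). Prom1 lost its call at 0.77 ± 0.35 (adjusted p = 0.324), a difference no smaller than without the covariate, 0.74 ± 0.23, but with a larger SE.

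Relative to the luminal list, lactation against day 63 gave -2.03 ± 0.35 for Kit (limma adjusted p = 1.20e-05) and -3.01 ± 0.48 for Prom1 (adjusted p = 3.22e-06), where 67.5% of all genes fell. Elf5, at -0.44 ± 0.36, and Plet1, at -0.33 ± 0.35, were not called. With the list mean as a covariate, Elf5 turned to -0.80 (adjusted p = 0.0427) and Plet1 to -0.65 (adjusted p = 0.0952). In parous against lactating glands, Elf5 (1.36), Kit (1.49) and Prom1 (3.28) rose on this scale, as did 78.5% of all genes, and the covariate gave 1.79 for Elf5 (adjusted p = 0.000532) and 0.98 for Plet1 (adjusted p = 0.0414). Relative to 4 luminal keratins, all 5 members fell in lactation against day 63, as did 94.7% of all genes, and all 5 rose in parous against lactating glands, as did 97.6%. These values show unequal change within an array and do not give the level per luminal cell. The list mean was 9.90 at day 63, 10.85 in lactation and 9.65 in parous glands. The shares of all genes on these scales follow largely from the shift of the reference genes themselves.

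**Figure D3:**
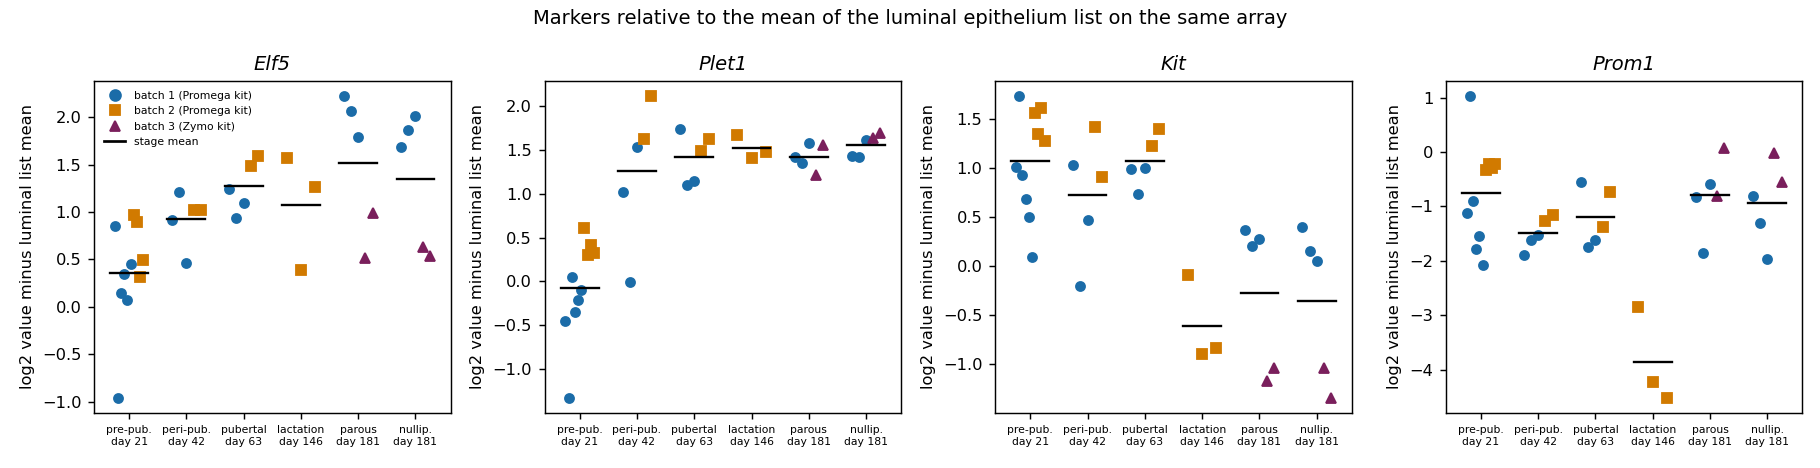
Log2 value of Elf5, Plet1, Kit and Prom1 minus the mean of 16 luminal genes on the same array, by stage, with batch marked by shape and the stage mean by a bar. The Plet1 value runs from -1.32 to 0.60 at day 21, and from 1.02 to 2.11 in the day 42 arrays other than array 2, at -0.0085. The 3 lactation arrays are the lowest in Prom1.

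Within a stage and batch, 3 of the members varied with the luminal list. Deviations from the mean of each stage and batch were correlated over 33 arrays, with permutation within those cells and adjustment over 16 relations. Plet1 and the luminal list mean gave r = 0.897 (Spearman rho 0.702, permutation p = 3e-05 and 0.0001, adjusted p = 0.00024 and 0.00112), Elf5 and the list r = 0.881 (rho 0.607, p = 0.00044 and 0.00436, adjusted p = 0.00235 and 0.0174), and Kit and the list r = 0.700 (rho 0.717, p = 2e-05 and 0.00014, adjusted p = 0.00024 and 0.00112). Without the 2 arrays farthest out, these were 0.644, 0.570 and 0.693 (Plet1, Elf5 and Kit). Without all 10 pre-pubertal arrays they were 0.356, 0.140 and 0.489. Aldh1a3 gave r = 0.149 (rho 0.232, permutation p = 0.370 and 0.287, adjusted p = 0.658 and 0.510) and Prom1 gave r = -0.02 (rho 0.086, permutation p = 0.904 and 0.686, adjusted p = 0.915 and 0.844).

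Between members, Kit and Plet1 gave r = 0.710 (rho 0.539, permutation p = 0.00083 and 0.0138, adjusted p = 0.00332 and 0.0441) and 0.514 without the 2 farthest arrays. Elf5 and Kit gave r = 0.618 (rho 0.571, p = 0.00116 and 0.00218, adjusted p = 0.00371 and 0.0116), which rests on pre-pubertal arrays 2 and 8 and became 0.461 without them (permutation p = 0.0560). Elf5 and Plet1 gave r = 0.815 (rho 0.389, p = 0.00809 and 0.0859, adjusted p = 0.0216 and 0.222). That relation rests on pre-pubertal arrays 2 and 8, without which r was 0.233 (permutation p = 0.411). Without all pre-pubertal arrays, r was -0.260 for Elf5 with Plet1, 0.212 for Elf5 with Kit and 0.541 for Kit with Plet1. The other 7 pairs were not called over all arrays. Without the 2 farthest arrays, Kit with Prom1 went from r = 0.270 to 0.479 (permutation p = 0.0145, not adjusted). Plet1 with Prom1 went from r = 0.041 to 0.323 (permutation p = 0.0101, not adjusted). The rest of the 7 pairs then had permutation p = 0.217 to 0.747.

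**Figure D4:**
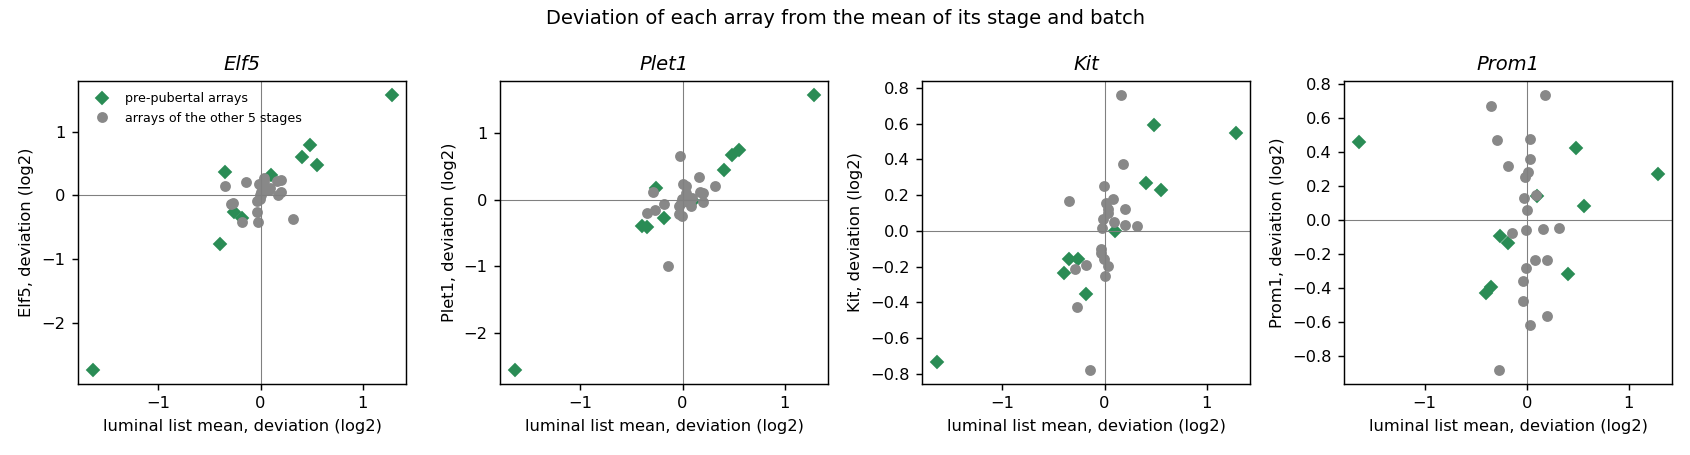
Deviation of Elf5, Plet1, Kit and Prom1 from the mean of each array's stage and batch, against the deviation of the luminal list mean, in log2 units over 33 arrays. The r over all arrays is 0.881 for Elf5, 0.897 for Plet1, 0.700 for Kit and -0.02 for Prom1. In the arrays of the other stages than pre-pubertal it is 0.140 for Elf5, 0.356 for Plet1 and 0.489 for Kit.

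The closest companions of each member across the arrays were described by Pearson's r after removal of batch effects, with stage differences kept in. For Elf5 they were the mucins Muc4 (r = 0.990) and Muc15 (0.982), the ETS factor Ehf (0.980), the milk fat globule protein gene Btn1a1 (0.976) and Galnt3 (0.972). For Plet1 they were Muc15 (0.976), Tmc4 (0.974), Sectm1b (0.968), the luminal list gene Cd24 (0.966) and Muc4 (0.965). Elf5 and Plet1 had r = 0.948 with each other, over points that include the rise of both at day 42. For Kit they were the sodium channel subunit genes Scnn1b (0.939) and Scnn1g (0.905) with Tlcd4 (0.925), Kcnh1 (0.923) and Synj2 (0.908). Scnn1b had stage means of 7.99, 10.25 and 10.97 at days 21, 42 and 63, and 9.75 in lactation, so it also peaked at day 63. For Aldh1a3 the closest was Btbd19 at only 0.789.

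Genes upstream of Elf5 and other progenitor genes moved in part with the members. Prlr, the prolactin receptor, rose by 2.30 ± 0.22 at day 42 against day 21 (limma adjusted p = 1.43e-08) and fell by 1.43 in lactation against day 63 (-1.43 ± 0.31, adjusted p = 0.000521). Gata3, a luminal transcription factor, rose by 1.55 ± 0.21 at day 42 (adjusted p = 3.39e-06), and Stat5a, the transducer of prolactin signals, by 0.61 ± 0.13 (adjusted p = 0.000916). Jak2 and Stat5b were not called, and Tnfsf11, which encodes RANK ligand, fell by 1.04 (-1.04 ± 0.25, adjusted p = 0.00206). The Tnfsf11 arrays ran from 6.69 to 8.64 at day 21 and from 6.71 to 6.98 at day 42. All day 42 arrays thus lay under the floor of 7.645, and the size of this fall is not exact. Of the 10 ligand, upstream and paralog genes tested, 6 rose and 1 fell at day 42 against day 21. In lactation against day 63, 2 rose and 2 fell. The median of the 10 was 0.61 at day 42 against day 21, where the median of all genes was near 0.

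Of 12 other progenitor and alveolar genes, 5 rose and 2 fell at day 42 against day 21, led by the ETS-related Elf3 (1.42) and Ehf (1.77) and by Sox10 (0.89). In lactation against day 63, 3 fell and 0 rose: Notch3 (-0.85), the complement regulator Cd55 (-1.35) and the integrin Itga2 (-0.97). Cd14, the lipopolysaccharide co-receptor, was the 1 gene of this list called at day 63 against day 42, where it rose by 0.92 ± 0.22 (limma adjusted p = 0.0323).

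Promoter sequences are shown for Plet1 and Kit, whose deviations were correlated within stage and batch. Of the 4 members with a promoter to search, these 2 held a searched motif. RefSeq promoters of the rat build GRCr8, from 250 bases before to 50 after a start, were found for 4 of the 5 members, with 5 starts. None was found for Elf5, so its promoter was not searched. Both strands were searched for TTCNNNGAA (STAT), CCGGAA (ETS), GCCNNNGGC (AP-2) and AACCNGTT (GRHL), and capitals mark a match. Plet1 lies at chr8:59738389-59738688 on the plus strand and Kit at chr14:32978763-32979062 on the minus strand.
Plet1: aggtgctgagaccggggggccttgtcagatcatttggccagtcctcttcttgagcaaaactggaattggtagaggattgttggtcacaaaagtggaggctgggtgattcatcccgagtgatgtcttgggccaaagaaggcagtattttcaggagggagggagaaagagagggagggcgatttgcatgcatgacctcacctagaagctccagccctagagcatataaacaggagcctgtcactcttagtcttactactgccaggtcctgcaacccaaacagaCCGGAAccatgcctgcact
Kit: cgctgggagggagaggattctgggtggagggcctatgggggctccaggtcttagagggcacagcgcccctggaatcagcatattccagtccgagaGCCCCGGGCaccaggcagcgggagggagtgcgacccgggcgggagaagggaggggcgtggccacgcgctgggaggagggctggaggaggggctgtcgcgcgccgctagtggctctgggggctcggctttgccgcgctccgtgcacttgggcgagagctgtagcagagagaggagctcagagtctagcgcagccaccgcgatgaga
The ETS letters of Plet1 begin at base 32 after the start and read CCGGAA. The AP-2 letters of Kit begin at base -155, read GCCCCGGGC and match the pattern on both strands, and no matches overlap. The ETS letters are in 15% and the AP-2 letters in 15.1% of the 33469 promoters of the table. The STAT letters are in 8.87% and the GRHL letters in 2.1%, and in none of these 5 promoters. The arrays measured RNA and did not read these sequences.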

How the data were processed

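Total RNA was hybridised to Affymetrix whole-transcript arrays. The authors deposited log2 values for 36685 probe sets, which are RMA summaries from Affymetrix Expression Console per the submitters' processing notes (versions not given in the sources used here). RMA (robust multi-array average) normalizes across arrays, so a shift common to most genes is not seen, and low values have no stated detection limit. Array number limits the precision.

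Probe sets with 1 symbol in the platform annotation (18511) were used, keeping the highest mean where a symbol had several. The 10986 genes above 7.645 in at least 3 arrays were tested. Limma 3.58.1 in R 4.3.3 fitted 6 stages and 3 batches over 33 arrays (25 residual degrees of freedom, trended variances). List means and correlations used the same values, with 100000 permutations. The 5 members, the gene lists and the tests were chosen with earlier results of these data known. The named genes were the members, every tested partner gene, up to 3 genes of smallest adjusted p per list and comparison, and the 5 genes of highest r per member. Relative values subtract the luminal list mean from every gene on an array, and the p-values come from the same model. Replicates were numbered in accession order and pair no samples. The fit was tested on simulated data. Alternatives tried were other filters, thresholds and normalizations, array weights, no batch term, covariates, single batches, fits of only the 2 groups compared, and the removal of single arrays. Matplotlib 3.10.9 drew the figures.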

Additional observations from a re-analysis of the deposited data

Results flagged for a closer look

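Pre-pubertal array 2, from batch 1, stood far below the other day 21 arrays in both Elf5 and Plet1. Elf5 was 5.80 there, against 7.96 in the next lowest array, and Plet1 was 5.43, against 7.59. Its luminal list mean, 6.75, was also the lowest of the 10. Whether its luminal content accounts for the low values was not tested. Peri-pubertal array 2, also from batch 1, had a Plet1 value of 9.78, against 11.11 in the next lowest day 42 array. Each is a gap between the lowest array and its neighbour that is large for the range of its group, and about 1 in 20 groups would show one by chance.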

How the results depend on the processing

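Of the 5 members, 4 were called at day 42 against day 21, 0 at day 63 against day 42, 0 in nulliparous glands against day 63, 2 in lactation against day 63, 2 in parous against lactating glands and 0 in parous against nulliparous glands. The last count was 0 under every alternative run. With the mean of the luminal list as a covariate, the first count became 0, the third 2, the fourth 3 and the fifth 4. Batch 2 alone also gave 3 in lactation against day 63. Array weights gave 1 at day 63 against day 42. Nulliparous against day 63 gave 1, a fall of Kit, with no batch term, with array weights and with the skeletal muscle covariate. It gave the same without the 2 low arrays (pre-pubertal 2 and peri-pubertal 2, chosen after seeing the data). In a fit of only the 2 groups, the 1 call was a rise of Elf5 (0.63, limma adjusted p = 0.0169). Under the luminal covariate, the 2 calls were a fall of Kit (-0.72, adjusted p = 0.0219) and a rise of Elf5 (0.81, adjusted p = 0.0440). Lactation against day 63 gave 1 at an adjusted p under 0.01, with a 2-fold minimum and with no batch term, and 4 without the 2 low arrays and in a fit of only the 2 groups. Parous against lactating glands gave 1 at an adjusted p under 0.01, with a 2-fold minimum, with no filter, with the floor at the 75th percentile (where fewer genes are tested), with array weights and without batch 3. Leaving out 1 array at a time gave 4 at day 42 against day 21, 0 to 1 in nulliparous against day 63, 2 to 4 in lactation against day 63 and 1 to 3 in parous against lactating glands. Relative to 4 luminal keratins, 5 members fell in lactation against day 63, as did 94.7% of all genes, and 5 rose in parous against lactating glands, as did 97.6%. Both shares follow largely from the shift of the keratins themselves. The cause of these changes was not tested.

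The fall of Prom1 in lactation against day 63 (-1.88 to -1.71) and its rise in parous against lactating glands (1.81 to 2.07) kept their calls in 17 and 15 alternatives, and also in the 33 fits that left out 1 array each (-2.19 to -1.55 and 1.58 to 2.22). Some differences turned sign. The luminal covariate gave -0.80 for Elf5 and -0.65 for Plet1 in lactation against day 63, 1.79 and 0.98 for them in parous against lactating glands, and -0.11 for Aldh1a3 at day 42 against day 21. With no batch term, nulliparous against day 63 gave -0.10 for Elf5, -0.044 for Plet1, -0.013 for Aldh1a3 and 0.090 for Prom1, and parous against lactating glands gave -0.87 for Kit. Array weights gave 0.20 for Prom1 in nulliparous against day 63, -0.036 for Kit in parous against lactating glands and -0.070 for Kit in parous against nulliparous glands. Elf5 in parous against lactating glands was 0.061 after a second quantile normalization and 0.040 with the muscle covariate, and Kit there was -0.073 without the 2 low arrays. Single batches gave -0.020 for Aldh1a3 at day 42 against day 21 (batch 1), -0.013 for Plet1 at day 63 against day 42 (batch 2), and -0.033 for Kit and -0.19 for Prom1 in parous against nulliparous glands (batch 3). Without the 2 farthest arrays, r was 0.208 for Elf5 with Prom1 and -0.118 for Aldh1a3 with Prom1.

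Among differences that were not called, leaving out 1 array moved Elf5 in parous against lactating glands between -0.30 and 0.11, Kit there between -0.0075 and 0.17, and Kit in parous against nulliparous glands between -0.10 and 0.11. Prom1 moved between -0.27 and 0.31 in nulliparous against day 63 and between -0.20 and 0.25 in parous against nulliparous glands. Aldh1a3 moved between -0.020 and 0.078 at day 42 against day 21, between -0.071 and 0.18 in nulliparous against day 63, and between -0.13 and 0.86 in lactation against day 63. No fit of only 2 groups could be made for parous against lactating glands, which share no batch. No paired analysis was possible because the labels give no replicate numbers that pair animals across stages. With 3 lactation arrays in 1 batch, and Aldh1a3 and Prom1 near the filter floor, small differences of these were not detectable.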
